A study of Mus musculus with 4 samples.

Results

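The mesothelial marker genes Wt1, Msln, Upk3b, Upk1b, Lrrn4, Gpm6a, Bnc1, Nkain4 and Muc16 were followed after unilateral pneumonectomy (PNX). In PNX the left lung was removed by surgery, and the cells were a lung fraction selected as endothelial cells (ECs) by the surface protein CD31. These 9 genes were taken by their symbols, and 8 of them had a transcript among the 24063 gene symbols of the deposited tables. Muc16 had no row under its symbol or its RefSeq synonyms and was not analysed here. For genes with several transcripts the one with the highest count summed over the libraries was used. The transcripts of Gpm6a and those of Nkain4 had nearly the same counts.

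RNA was sequenced from cells that had been isolated with anti-CD31 magnetic beads from lungs of 8-week-old C57Bl6J mice, which the labels describe as male. One group was taken 7 days after PNX and the other came from sham-operated mice. The sham operation was a thoracotomy without removal of a lung. Each group had 2 libraries, each made from cells pooled from 2 mice, so 4 libraries were compared. The labels name no transgene or deletion in either group. The lung tissue was digested with collagenase before selection, and neither the labels nor the methods name a step that removed the pleura. The selected cells were passed over another column for purity and, per the methods, checked by flow cytometry for CD31 and VE-cadherin and for absence of CD45, the surface protein of leukocytes. The methods mention culture of isolated ECs for later experiments, and whether the sequenced cells were cultured before RNA extraction is not given in the sources used here.

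The lungs and the chest wall are covered by a layer of mesothelial cells, the pleura, which makes a gliding surface and carries microvilli. Mesothelium comes from the lining of the embryonic body cavity and keeps epithelial keratins together with mesodermal transcription factors. Mesothelial cells are known to divide and to take on mesenchymal traits after injury. Some of these genes are not restricted to the pleura, since Muc16 is also known from airway epithelium, and Wt1 has been described in ECs of growing or injured vessels.

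The counts on 1 transcript per gene came to between 41367439 and 50952873 per library, and 3 counts corresponded to between 0.0589 and 0.0725 CPM (counts scaled to the library total), a floor that covers counting error only. Pecam1, which encodes CD31, had between 90192 and 91115 normalized counts in every library. Markers of other lung cells were abundant as well, so ECs in this text names the CD31-selected fraction and not a pure cell type. Sftpc, which encodes a surfactant protein of alveolar type 2 cells, had at least 110651 normalized counts in each library. None of the 44 genes on chromosome Y received a count in any library (0 counts each) and Xist had between 29890 and 36875 counts, which goes against male mice as the label and holds for every library in the same way. Of the 16208 genes tested, 957 (5.90%) were called higher and 269 (1.66%) lower after PNX, which needed a log2 ratio of post-PNX over sham above 1 or below -1 together with a Benjamini-Hochberg adjusted p under 0.01 (edgeR, quasi-likelihood). Without a limit on the size of the change, 29.3% of the genes were higher and 27.8% lower at that adjusted p. Libraries of a group were close, with a median SD of log2 normalized counts within groups of 0.045. The p-values and intervals rest on this small spread between 2 libraries per group, and variation between single mice was not measured. Sftpc had 171272 and 170756 normalized counts in sham ECs and 111404 and 110651 after PNX. Per the methods each library was a pool of 2 mice, and whether libraries of a group differ by more than counting error was not tested.

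All 8 genes that could be measured were higher in post-PNX ECs with an adjusted p under 0.01 in this edgeR test, against 29.3% of all genes, and both post-PNX libraries lay above both sham libraries for each of them, against 40.8% of all genes. Wt1, Msln, Upk3b, Lrrn4, Bnc1 and Nkain4 also passed the fold threshold, 6 of 8 genes against a background of 5.90%. Upk1b and Gpm6a stayed below it. These genes and the lists below were chosen with earlier results of these data known, so such shares only describe them. The median log2 ratio of the 8 genes was 1.19, beside 0.0012 for all genes tested, and the single values ranged from 0.31 in Gpm6a to 2.68 in Wt1. In bulk RNA, more cells of a type and more RNA per cell cannot be told apart.

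**Figure D1:**
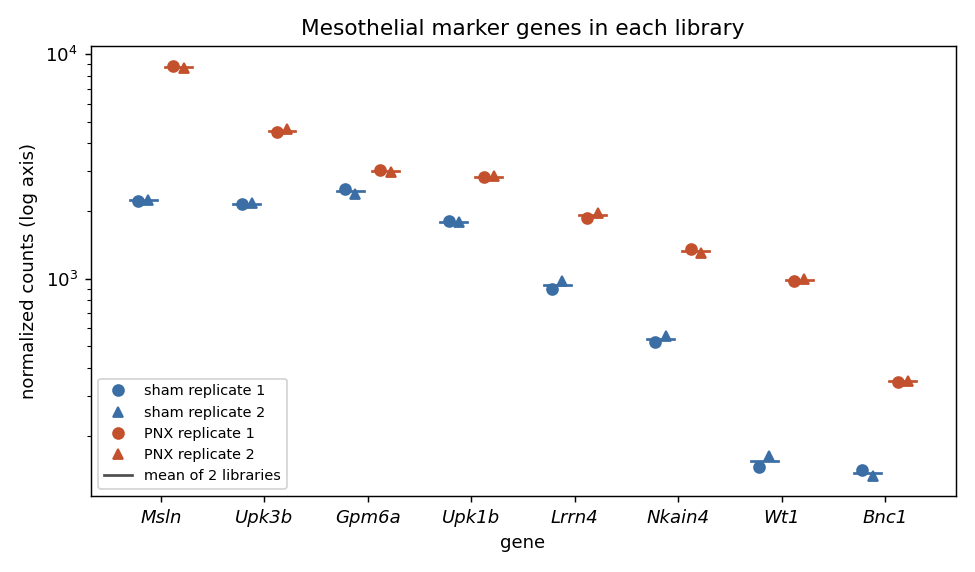
Normalized counts (log axis) of the 8 mesothelial marker genes in the sham and post-PNX libraries; circles and triangles are replicates 1 and 2 and lines are means of 2 libraries. Both post-PNX points lie above both sham points for every gene, with the widest gap in Wt1 and the narrowest in Gpm6a.

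Of the transcription factors Wt1 and Bnc1, Wt1 changed more. Wt1 encodes a zinc-finger protein of the embryonic body-cavity lining and of mesothelium, and the gene lies on chromosome 2 from 105126529 to 105173614 (GRCm38, the mm10 build). Sham ECs gave 160 and 160 reads on Wt1, and post-PNX ECs 993 and 896. After normalization these were 145 and 163 against 976 and 998, so the groups were far apart and the libraries of a group close together. The log2 ratio was 2.68 (SE 0.079, edgeR adjusted p = 1.2e-37), a 6.42-fold rise with a 95% interval from 5.76 to 7.16. Of all genes tested, 1.25% had a larger rise.

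Wt1os is a noncoding RNA transcribed from the other strand, away from Wt1. The RefSeq start sites of Wt1os at 105126510 and of Wt1 at 105126529 face away from each other across 18 bases, chr2:105126511-105126528 of GRCm38.p6, which are shown on the strand of Wt1 because both RNAs start at their edges.
Wt1os-Wt1 interval: gagctaggctagggctgc

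Sham ECs gave 5 and 2 reads on Wt1os, and post-PNX ECs 36 and 40. It rose with Wt1, with a log2 ratio of 3.52 (SE 0.43, edgeR adjusted p = 2.2e-10), but the few sham counts left a wide 95% interval from 6.26-fold to 20.9-fold. The log2 ratio was 4.20 without the first sham library and 3.10 without the second. The RefSeq spans of these genes do not overlap. The Wt1os reads were few beside those of Wt1, with 0.167 ± 0.0269 (SD, 2 libraries) against 4.36 ± 0.0628 (SD, 2 libraries) FPKM after PNX.

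Bnc1, which encodes the zinc-finger protein basonuclin known from basal keratinocytes and germ cells, lies on chromosome 7 from 81966657 to 81992299. It had 140 and 133 normalized counts in sham ECs and 346 and 351 in post-PNX ECs, without overlap between groups. The log2 ratio was 1.35 (SE 0.10, edgeR adjusted p = 1.2e-17), a 2.55-fold rise. Bnc1 was the least abundant of the genes, with 1.02 ± 0.0087 (SD, 2 libraries) FPKM after PNX.

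Among the surface proteins, Msln had the largest rise. Msln, on chromosome 17 from 25748613 to 25754378, encodes mesothelin, a lipid-anchored glycoprotein that binds the mucin encoded by Muc16. Its normalized counts were 2219.5 and 2245 in sham ECs against 8804 and 8684 in post-PNX ECs, a difference much larger than the spread within groups. The log2 ratio was 1.97 (SE 0.028, edgeR adjusted p = 1.9e-54), a 3.92-fold rise with a 95% interval from 3.77 to 4.07.

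Upk3b and Upk1b encode uroplakins, membrane proteins best known from the urothelial surface, where the tetraspanin uroplakin 1b pairs with uroplakins of class 3. Upk3b, on chromosome 5 from 136038496 to 136044993, had 2143 and 2173 normalized counts in sham ECs and 4489 and 4626 after PNX. Its log2 ratio was 1.08 (SE 0.031, edgeR adjusted p = 7.6e-38), just above the fold threshold. Upk1b, on chromosome 16 from 38773182 to 38800203, had 1807 and 1783 normalized counts in sham ECs and 2825 and 2866 after PNX. Its log2 ratio was 0.66 (SE 0.035, edgeR adjusted p = 8.2e-25), so it rose 1.58-fold and was not called. The 95% intervals of the uroplakin genes, from 2.02-fold to 2.21-fold in Upk3b and from 1.51-fold to 1.66-fold in Upk1b, did not overlap.

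Nkain4, on chromosome 2 from 180934766 to 180954937, encodes a membrane protein that interacts with the sodium-potassium pump. Its normalized counts were 525 and 553 in sham ECs against 1357 and 1297 in post-PNX ECs. The log2 ratio was 1.30 (SE 0.055, edgeR adjusted p = 1.1e-29), a 2.47-fold rise. The other Nkain4 transcript in the tables had between 99.5% and 100% of the counts of the one used in every library.

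Lrrn4, on chromosome 2 from 132866686 to 132894010, encodes a membrane protein with leucine-rich repeats that was first described in neurons. Its RefSeq span overlaps that of Crls1, and whether reads were shared between these genes was not tested. Lrrn4 had 897 and 974 normalized counts in sham ECs and 1862 and 1963 after PNX, again without overlap between groups. The log2 ratio was 1.03 (SE 0.046, edgeR adjusted p = 1.6e-28), and its 95% interval from 0.94 to 1.13 contains the threshold of 1. Without the first sham library it was 0.97 and without the second post-PNX library 0.997, so the gene was then not called and 5 of the 8 genes were.

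Gpm6a, on chromosome 8 from 54779434 to 55060878, encodes a membrane glycoprotein of the proteolipid protein family that is abundant in neurons. Its RefSeq span overlaps that of LOC115486929, and sharing of reads was not tested here either. The normalized counts of Gpm6a were 2516 and 2369 in sham ECs against 3056 and 2984 in post-PNX ECs. The groups did not overlap, but the difference was small, with a log2 ratio of 0.31 (SE 0.034, edgeR adjusted p = 7.3e-12) or 1.24-fold. Its 3 transcripts in the tables share most of their reads, and the others had between 93.7% and 99.9% of the counts of the transcript used.

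**Figure D2:**
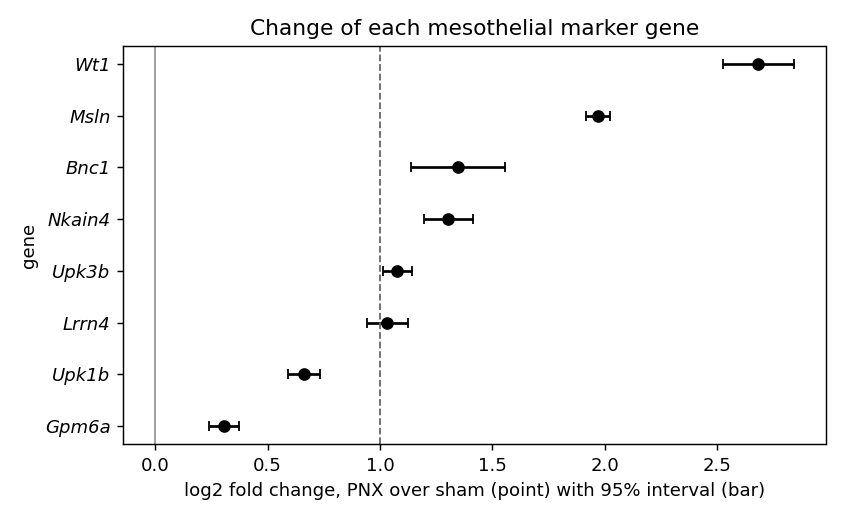
Log2 ratio of each mesothelial marker gene in post-PNX over sham ECs (points) with the 95% interval from edgeR (bars); the solid line marks 0 and the dashed line the fold threshold of 1. The values run from 0.31 in Gpm6a to 2.68 in Wt1, all above 0, and the interval of Lrrn4 crosses the threshold.

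In these libraries the genes did not rise by the same factor. Of the 28 pairs among the 8 genes, 25 had 95% intervals of the log2 ratio that did not overlap. The pairs with overlapping intervals were Upk3b with Lrrn4, Upk3b with Bnc1, and Bnc1 with Nkain4. The share over pairs of other genes was not computed, so this count does not set the 8 genes apart. The intervals rest on the small spread between libraries of a group. On the FPKM scale, which takes account of transcript length, the level of Msln divided by that of Upk3b was 0.997 and 0.994 in sham against 1.89 and 1.81 after PNX. Msln divided by Gpm6a went from 1.24 and 1.33 to 4.04 and 4.08. By contrast, Upk3b divided by Lrrn4 was 4.08 and 3.81 in sham and 4.11 and 4.02 after PNX, where the groups overlap. The levels in these ratios rest on the transcript lengths behind FPKM, while their change between groups does not.

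The order of the FPKM levels changed with these ratios. In sham ECs Upk3b with 14.4 ± 0.146 (SD, 2 libraries) FPKM and Msln with 14.3 ± 0.120 (SD, 2 libraries) FPKM did not differ beyond their spread. They were followed by Upk1b at 13.8 ± 0.128 (SD, 2 libraries), Gpm6a at 11.2 ± 0.471 (SD, 2 libraries) and Nkain4 at 7.70 ± 0.286 (SD, 2 libraries) FPKM. Lrrn4 had 3.66 ± 0.213 (SD, 2 libraries) FPKM, and Wt1 and Bnc1 were below 1 FPKM in both sham libraries. In post-PNX ECs Msln led with 56.5 ± 0.650 (SD, 2 libraries) FPKM, ahead of Upk3b with 30.6 ± 0.598 (SD, 2 libraries) and Upk1b with 21.98 ± 0.183 (SD, 2 libraries). Nkain4 with 19.1 ± 0.645 (SD, 2 libraries) FPKM had passed Gpm6a with 13.9 ± 0.260 (SD, 2 libraries). The place of Upk3b depends on its length, since the FPKM values imply 2036 bases and the annotated transcript has 3530. Annotated lengths were also taken for all genes, where the length of another Gpm6a transcript, 3215 bases, stood in for that of the one used. With these lengths Upk3b had a level of 8.31 ± 0.0844 (SD, 2 libraries) in sham, below Msln, Upk1b and Gpm6a, and of 17.6 ± 0.345 (SD, 2 libraries) after PNX, below Msln, Upk1b and Nkain4. Msln then led in both groups, and Nkain4 passed Upk3b and Gpm6a after PNX. Msln moved from a level above 77.0% and 77.2% of the genes tested in the sham libraries to above 95.05% and 94.9% in the post-PNX libraries.

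Summed over the 8 genes, the level was 66.0 and 66.3 FPKM in sham against 155 and 155 FPKM after PNX, a ratio of 2.34 between the group means. Msln made up 21.7% ± 0.113 (SD, 2 libraries) of this sum in sham and 36.5% ± 0.317 (SD, 2 libraries) after PNX, while the share of Gpm6a went from 16.9% ± 0.765 (SD, 2 libraries) to 8.98% ± 0.142 (SD, 2 libraries). Against 12 endothelial marker genes summed in the same way, the mesothelial sum was 2.53% and 2.51% in sham and 7.00% and 6.97% after PNX.

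**Figure D3:**
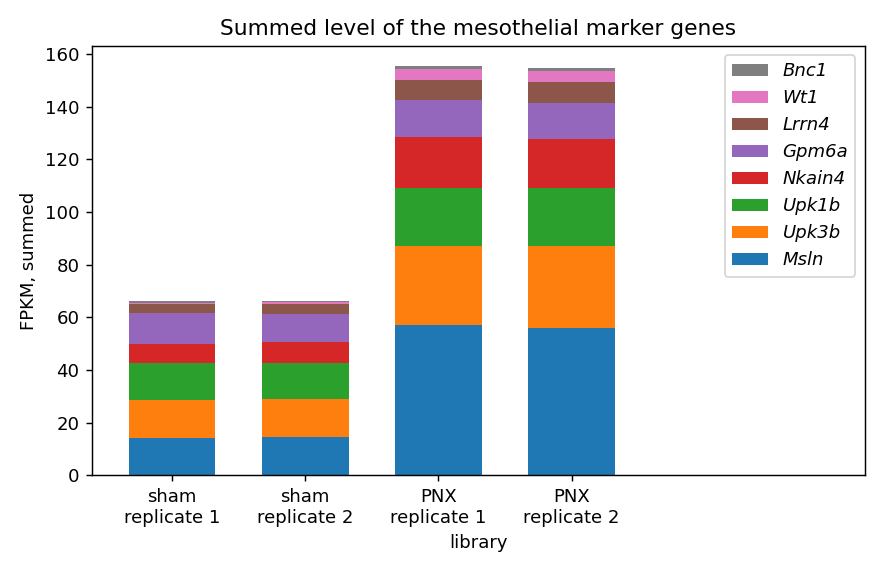
FPKM of the 8 mesothelial marker genes stacked for each library (linear axis from 0). The stacks reach 66.0 and 66.3 FPKM in sham and 155 FPKM in both post-PNX libraries, and the Msln segment widens most.

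For 4 of the 8 genes RefSeq promoters were at hand (GRCm38.p6). As the study concerns YAP1, which acts through the TEAD factors, the stretch from 250 to 51 bases before each start was searched for the TEAD motif GGAATG on both strands, which reads CATTCC on the opposite strand. It occurred in 10.7% of the 32851 promoters in the table. It was found in the windows of Upk3b and Lrrn4 and in 1 of the 2 windows of Gpm6a, and not in that of Bnc1, which had 84.5% G and C. The Lrrn4 window lies within the span given for that gene, so it precedes an internal start and not the outermost one. A match of 6 letters describes the sequence and does not show a binding site. The windows that hold it are printed 5′ to 3′ on the strand of the gene with the motif in capitals, to show where the match lies: Upk3b at chr5:136038246-136038445 (plus strand), Lrrn4 at chr2:132880913-132881112 (minus strand) and Gpm6a at chr8:54779184-54779383 (plus strand).
Upk3b: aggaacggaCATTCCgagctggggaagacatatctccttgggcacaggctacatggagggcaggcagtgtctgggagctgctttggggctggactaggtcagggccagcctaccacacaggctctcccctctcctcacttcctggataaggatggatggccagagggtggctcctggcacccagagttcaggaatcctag
Lrrn4: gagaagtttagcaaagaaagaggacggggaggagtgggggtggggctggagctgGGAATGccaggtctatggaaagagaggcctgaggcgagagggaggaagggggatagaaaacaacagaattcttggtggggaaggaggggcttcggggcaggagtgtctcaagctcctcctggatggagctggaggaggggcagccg
Gpm6a: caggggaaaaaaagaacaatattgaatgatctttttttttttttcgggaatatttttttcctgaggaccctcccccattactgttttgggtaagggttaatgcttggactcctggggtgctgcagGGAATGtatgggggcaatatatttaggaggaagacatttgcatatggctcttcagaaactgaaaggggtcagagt

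Other genes known from mesothelium moved less uniformly. Of 18 such genes, many of which are also expressed by lung epithelium, fibroblasts or macrophages, 17 were tested, 12 were higher and 1 was lower at an adjusted p under 0.01, and 5 were called higher against a background of 5.90% (edgeR's quasi-likelihood test). Their median log2 ratio was 0.39. Prg4, which encodes the lubricant proteoglycan 4, had 505 and 507 normalized counts in sham ECs and 2115 and 2125 after PNX, a log2 ratio of 2.07 (edgeR adjusted p = 2.7e-42). C3, the central complement component, had 22540.2 and 23226 normalized counts in sham ECs and 82695 and 84187 after PNX, a log2 ratio of 1.87. Dmkn, which encodes dermokine, and Aldh1a2, which makes retinoic acid in mesothelium, rose with log2 ratios of 1.46 and 1.27. The called gene not named by the rule, Slpi, a protease inhibitor of mucosal surfaces, was named after its value was seen and had a log2 ratio of 1.16. Aldh1a1, the related retinaldehyde dehydrogenase and the other of the most abundant genes of this list, was the gene that fell, with a log2 ratio of -0.27 (edgeR adjusted p = 1.4e-19). Calb2, which encodes the mesothelial marker calretinin, had 0, 1, 1 and 3 counts in the libraries and was not tested.

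Of 8 transcription factors of the mesothelium and its embryonic precursors, 7 were tested, with a median log2 ratio of 1.36. At an adjusted p under 0.01 (edgeR) 6 were higher, against 29.3% of all genes. The fold threshold was passed as well by 4, which were called higher against 5.90% of all genes. Osr1, a factor of intermediate and lateral mesoderm, had 198 and 212 normalized counts in sham ECs and 509 and 543 after PNX, a log2 ratio of 1.36 (edgeR adjusted p = 3.2e-21). Tbx18, known from epicardium, had 38.0 and 35.7 normalized counts in sham and 112 and 125 after PNX, a log2 ratio of 1.67 (edgeR adjusted p = 1.0e-11). Gata4, which acts in heart and body-cavity lining, had 48.9 and 39.8 against 147 and 127 normalized counts, a log2 ratio of 1.62 (edgeR adjusted p = 2.8e-12). Isl1 rested on 3 and 6 counts in sham and 20 and 15 after PNX, with a log2 ratio of 2.05 (edgeR adjusted p = 0.00030), and was not called by DESeq2's Wald test (adjusted p = 0.0247), without the first sham library (edgeR adjusted p = 0.0248) or without the first post-PNX library (adjusted p = 0.0175). The most abundant factors behaved differently. Gata6, which marks the macrophages of the body cavities as well, rose from a mean of 1227 ± 35.7 to one of 1912 ± 83.3 normalized counts (SD, 2 libraries each), a log2 ratio of 0.64. Tcf21, which is a factor of lung fibroblasts too, had 3030.3 ± 88.4 (SD, 2 libraries) and 3066 ± 137 (SD, 2 libraries) normalized counts, so its groups differed by less than their SDs (log2 ratio 0.02, edgeR adjusted p = 0.677).

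Markers of other cells that a CD31-selected lung fraction could hold moved in both directions beside these genes. Of 10 markers of the macrophages of pleural and peritoneal fluid 8 were called higher against a background of 5.90%, and their summed level went from between 275 and 276 FPKM to between 651 and 668 FPKM. A pair of genes carried this sum. Icam2, which is also an endothelial gene, had 260.4 ± 0.715 (SD, 2 libraries) FPKM in sham and 248 ± 4.97 (SD, 2 libraries) after PNX, and Saa3, an acute-phase protein gene, went from 2.53 ± 0.0315 (SD, 2 libraries) to 346 ± 6.84 (SD, 2 libraries) FPKM. The mean levels of the other 8 summed to 12.2 FPKM in sham and 65.98 FPKM after PNX, and this split was chosen after the values were seen. Of 8 fibroblast markers, 5 were called higher against 5.90% of all genes. Their sum went from between 206 and 209 to between 722 and 724 FPKM. None of 5 smooth muscle markers and 5 leukocyte markers was called. At an adjusted p under 0.01 (edgeR) 4 smooth muscle markers were higher, and 3 leukocyte markers were higher and 1 lower. Of all genes, 29.3% were higher and 27.8% lower at that limit. The summed levels of the smooth muscle and leukocyte markers were 81.1 to 82.2 against 112 to 113 FPKM and 243 to 245 against 262 to 264 FPKM. Ptprc, the gene of CD45, was picked out once its values were known: its counts ran from 10469 to 12801 over the libraries, with a log2 ratio of -0.0031 (edgeR adjusted p = 0.905). Of 6 genes of cell division all were called higher against 5.90% of all genes. Their sums were 7.57 to 7.66 FPKM in sham and 67.1 to 68.6 FPKM after PNX.

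Airway secretory markers went the other way, with 3 of 4 called lower against 1.66% of all genes and summed levels between 4504 and 4540 FPKM in sham and between 2150 and 2239 FPKM after PNX. With libraries scaled to the endothelial markers 1 was called lower, as Cyp2f2 had a log2 ratio of -0.99 and Scgb1a1 of -0.78. The 5 ciliated cell markers, 5 alveolar type 1 markers and 5 alveolar type 2 markers were lower at an adjusted p under 0.01 without passing the fold threshold, with median log2 ratios of -0.88, -0.52 and -0.65 (edgeR's quasi-likelihood test). In the same order, their summed levels in sham were 29.3 to 29.5, 637 to 644 and 3630 to 3635 FPKM. After PNX these sums were 16.3 to 16.4, 457 to 460 and 2347 to 2368 FPKM. Without the second sham or the second post-PNX library 1 alveolar type 1 marker was called lower. None of 12 endothelial markers was called. At an adjusted p under 0.01 (edgeR) 10 were lower and 1 higher, against 27.8% and 29.3% of all genes. They had a median log2 ratio of -0.25 and summed levels between 2608 and 2638 FPKM in sham and between 2217 and 2219 FPKM after PNX. In both groups the sum of the alveolar type 2 markers, a shorter list, was above that of the endothelial markers. Of 4 tested adipocyte markers 3 were called higher against 5.90% of all genes, all from few counts. Adipoq had 1 and 1 counts in sham and 83 and 93 after PNX, Ucp1 had 1 and 2 against 46 and 46, and Plin1 had 7 and 7 against 45 and 34, while Cidec, which held most of the summed level, had a log2 ratio of -0.21. A filter that asked for a mean of 50 counts removed these 3 genes from the test. Of 5 lymphatic endothelial markers Lyve1 was called lower with a log2 ratio of -1.14, which was -0.88 and not called under scaling to the endothelial markers. Prox1, the lymphatic transcription factor, rose with a log2 ratio of 0.43 (edgeR adjusted p = 1.9e-09). Flt4, Mmrn1 and Reln did not pass, with log2 ratios of -0.02, 0.02 and -0.04. In sham ECs Lyve1 had a mean of 44712 normalized counts and Prox1 one of 672. Whether the Lyve1 RNA came from lymphatic cells was not tested. No marker named in these lists of other cells was at 0 in all libraries. The part of RNA from pleural cells in the rise of the mesothelial genes was not tested, since no pleural sample was measured.

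**Figure D4:**
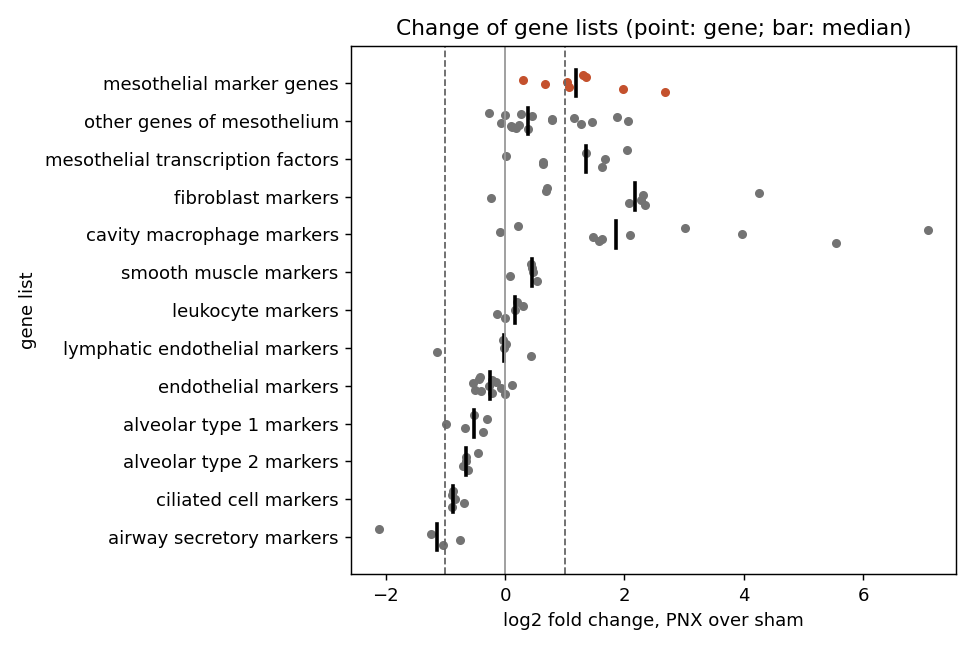
Log2 ratio in post-PNX over sham ECs for each tested gene (points) of the mesothelial marker genes and of lists for other cells, with the median of each list (black bars); dashed lines mark the fold threshold in either direction. The mesothelial marker genes lie between 0.31 and 2.68 with a median of 1.19, and the airway and alveolar lists lie below 0.

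The genes whose pattern over the 4 libraries was most like the median profile of the 8 mesothelial genes were found by the Euclidean distance of centred log2 normalized counts among the 13394 genes that averaged 100 normalized counts or more. The nearest were Kcnk13, a potassium channel, at a distance of 0.0227, Mpp6, a membrane scaffold protein, at 0.0263, and Sfrp1, a secreted Wnt antagonist, at 0.0298. Loxl1, which cross-links elastic fibres, followed at 0.0319 and Fabp4, a fatty acid binding protein, at 0.0328. Their log2 ratios were between 1.17 in Kcnk13 and 1.21 in Loxl1. This nearness was not rare, since 55 genes lay within 0.1 of the profile, while the mesothelial genes themselves lay between 0.105 for Upk3b and 1.504 for Wt1.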

How the data were processed

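Polyadenylated RNA of CD31-selected lung cells was measured in 2 sham and 2 post-PNX libraries. Paired-end reads of strand-specific mRNA libraries were aligned to mm10 (the submitters' processing notes name STAR), and the program for counting and its use of strand are not given in the sources used here. The authors deposited whole-number read counts, FPKM and TPM for 33068 RefSeq transcripts per library; counts are not normalized, deposited FPKM values take account of the length of a transcript and of sequencing depth, and the deposited TPM values were not used. Groups came from the sample titles.

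Counts of the transcript with the most counts per symbol were tested in R 4.3.3 with edgeR 4.0.16. The filter filterByExpr kept 16208 genes, TMM factors lay between 0.9985 and 1.003, and the quasi-likelihood test was run without covariates, with adjustment over all genes tested. A gene was called when its log2 ratio was above 1 or below -1 and its adjusted p under 0.01. In the text, rose and fell refer to an adjusted p under 0.01. Normalized counts are scaled to the mean library. The standard error is the log2 ratio divided by the square root of F, and 95% intervals use the test's degrees of freedom. On counts of 16208 genes simulated with the dispersion of these libraries, the test recovered 198 of 200 genes changed 4-fold and called 0 others. This does not describe genes near the fold threshold or a larger variation between mice. DESeq2 1.42.0, other scalings, filters, a replicate block, summed transcripts and libraries left out were tried.

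The members and all gene lists were chosen with earlier results of these data known. Genes named beside the members are, for each list, those called (the 4 largest changes where there are more) and the 2 with the most counts, and the 5 genes nearest to the members' median profile.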

Additional observations from a re-analysis of the deposited data

How the results depend on the processing

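Each of the 8 mesothelial genes kept its direction under all 13 alternatives, and 102 of 104 values kept their side of the thresholds; the exceptions were those of Lrrn4 without the first sham or second post-PNX library, given with that gene. The number of these genes called was 6 in every alternative apart from these, with 5. The alternative with an adjusted p under 0.05 used the main fit, so its directions could not change and no call could be lost. Scaling to the endothelial markers raised the median log2 ratio of all genes by 0.26 and that of the 8 genes from 1.19 to 1.45. That scaling gave 1329 genes called higher in place of 957 and 84 called lower in place of 269, and a mean of at least 50 counts gave 719 higher and 160 lower. It also put Cdh5 at 0.040, Pecam1 at 0.25, Lrrn3 at 0.0094, Gpm6b at 0.15, Muc1 at 0.056, Icam2 at 0.18, Cidec at 0.051 and Flt4 at 0.24, with the sign turned. With each library left out in turn, the value of Tcf21 ranged from -0.028 to 0.064 and that of Flt4 from -0.055 to 0.0079. With annotated transcript lengths in place of FPKM, that of Gpm6a from another of its transcripts, Msln made up 24.3% of the summed level in sham and 40.1% after PNX. The libraries share the numbers 1 and 2 but come from different mice, and the deviations of same-numbered libraries correlated at 0.030; with the replicate block 957 genes were called higher, 272 lower and 6 of the 8 mesothelial genes higher. The depth leaves genes with few counts, such as Wt1os and Isl1, with wide intervals.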

Other observations

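Relatives of the mesothelial genes differed in direction. In the Lrrn family of leucine-rich repeat membrane proteins, 3 of 5 tested genes were called higher against 5.90% of all genes. Lrrn2 had 104 and 96.8 normalized counts in sham ECs and 435 and 437 after PNX, a log2 ratio of 2.11 (edgeR adjusted p = 4.4e-26), larger than that of Lrrn4. Lrrn1 had 6 and 1 counts in sham and 43 and 29 after PNX, a log2 ratio of 3.44 with a 95% interval from 5.80-fold to 20.2-fold, and of 5.04 without the first sham library and 2.76 without the second. Lrrn3 had 756 and 740.1 normalized counts in sham and 639 and 618 after PNX, a log2 ratio of -0.25 that was 0.01 under scaling to the endothelial markers. Bnc2 rose with a log2 ratio of 0.51 (edgeR adjusted p = 6.0e-06), less than Bnc1. Nkain1 had a log2 ratio of 0.23 and did not pass (edgeR adjusted p = 0.0141). Gpm6b had a log2 ratio of -0.11, which was 0.15 under scaling to the endothelial markers.

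Of the membrane mucins, 4 were tested and 0 were called, and Muc16 was not analysed here. At an adjusted p under 0.01 in edgeR 2 were lower, against 27.8% of all genes. Muc1, the most abundant, had 3208 ± 113 (SD, 2 libraries) normalized counts in sham and 2788 ± 87.2 (SD, 2 libraries) after PNX, and its log2 ratio of -0.21 was 0.06 under scaling to the endothelial markers. Muc4 fell, with 567 and 557 normalized counts in sham and 376 and 398 after PNX, a log2 ratio of -0.54 (edgeR adjusted p = 2.7e-09). Among the uroplakins other than Upk1b and Upk3b, Upk1a was tested and had a log2 ratio of -0.37 (edgeR adjusted p = 0.332), named after its value was seen, and Upk2, Upk3a and Upk3bl had at most 8 counts in any library.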
